A study of Homo sapiens with 6 samples.

Results

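The genes described here are the expressed protein-coding genes of distal chromosome 5q, the end of the long arm of chromosome 5, in AGS cells with and without depletion of FTO. AGS is an established human gastric adenocarcinoma line, and FTO removes the N6-methyladenosine (m6A) mark from RNA. Total RNA was sequenced from 3 si-NC libraries (cells given a negative control siRNA) and 3 si-FTO libraries (cells given an siRNA against FTO). The labels also carry a genotype field, which reads wild type in the control libraries and FTO-/- in the depleted ones. A deletion differs from a transient siRNA, and the values used here do not settle which description holds. The values are the authors' mean TPM (transcripts scaled to the same total in every library), 1 mean per group, so no error between libraries can be given and no test was made.

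Members were chosen by position and by mean TPM: protein-coding genes starting at 162.8 Mb of chromosome 5 or later in GRCh37 whose mean TPM was 1 or more in either group. The segment itself was also selected on these values, since it was proposed with the ratios in view, so the values below describe the members and support nothing further. Of 132 protein-coding genes of the segment in the table, 9 were left out by name (symbols beginning ZNF, COL or MRP, and 2 single genes) and 34 by level. This gave 89 members among 58174 genes in all, and 12908 other genes passed the same filters. The threshold was reached in both groups by 79 members, with si-NC only by 8 and with si-FTO only by 2, and those 10 had to differ between the groups. The 8 were FBLL1, SLIT3, NKX2-5, SNCB, RASGEF1C, ADAMTS2, FLT4 and BTNL9, and the 2 were TENM2 and FGF18. Just inside the threshold lay TENM2, with mean TPM of 0.0782 with si-NC and 1.30 with si-FTO, and FBLL1, with 1.33 with si-NC and listed at 0 with si-FTO. Just outside it lay INSYN2B, with 0.632 TPM with si-NC and listed at 0 with si-FTO. By position, the nearest expressed gene before the segment was PTTG1, with 365 TPM with si-NC and 260 with si-FTO.

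Distal 5q is a gene-rich chromosome end that holds genes with unrelated tasks. Among them are nucleolar and ribosome-associated proteins such as nucleophosmin (NPM1) and RACK1, the endoplasmic reticulum chaperone calnexin (CANX), the MAP kinase phosphatase DUSP1 and developmental transcription factors such as NKX2-5, MSX2 and TLX3. Genes that lie side by side on a chromosome share its copy number and parts of its chromatin, while each keeps its own promoter.

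The targeted gene, FTO on chromosome 16, had a mean TPM of 33.1 with si-NC and 7.27 with si-FTO, 21.9% of the si-NC value. Cell type markers also differed between the groups, although all libraries carry the label AGS. Of 10 epithelial markers, 5 reached 1 TPM with si-NC and 6 with si-FTO, and their summed TPM was 69.5 with si-NC and 5105 with si-FTO. The most abundant was KRT18 with si-NC, at 52.1 TPM, and KRT8 with si-FTO, at 3139 TPM, whereas EPCAM was at 1.22 with si-NC and 0.113 with si-FTO, and KRT19 was listed at 0 with si-NC. The paired keratins KRT8 and KRT18, which form the filaments of simple epithelia, were thus far more abundant with si-FTO and made up most of that sum. KRT19, CLDN3, CLDN4, CLDN7 and ELF3 were also higher with si-FTO. Like EPCAM, CDH1 was lower, at 3.67 TPM with si-NC and 0.685 with si-FTO, as was ESRP1. Of 8 markers of the gastrointestinal lineage, 1 reached 1 TPM with si-NC and 2 with si-FTO, and their summed TPM was 21.0 with si-NC and 4.86 with si-FTO. GATA6 was the most abundant of these in both groups, and TFF1 and CDX1 were listed at 0 in both. Of 6 neuronal type markers, 4 reached 1 TPM with si-NC and 1 with si-FTO, with a summed TPM of 384 with si-NC and 5.98 with si-FTO. UCHL1 made up most of that sum with si-NC, at 303 TPM, and NEFL, at 62.7 TPM with si-NC, was listed at 0 with si-FTO, as was STMN2 in both groups. The neuronal type genes thus went the opposite way to the keratins. The endothelial cadherin CDH5 was at 0.00827 TPM with si-NC and 40.9 with si-FTO, and made up nearly all of the 41.0 TPM summed over 3 endothelial markers with si-FTO, against 0.414 with si-NC, where none of the 3 reached 1 TPM. Of 6 fibroblast markers, 4 reached 1 TPM with si-NC and 2 with si-FTO, with COL1A1 the most abundant in both, and the sums were 16.7 and 40.3 TPM. Of 5 leukocyte markers, 2 reached 1 TPM with si-NC and 1 with si-FTO, with sums of 4.15 and 7.34 TPM, and PTPRC was listed at 0 in both. The part of these marker differences in the results for distal 5q was not tested. The group means do not settle whether the libraries of both groups come from the same cell line, so in every ratio below, depletion of FTO and a difference between the cells themselves cannot be told apart. In bulk RNA, fewer cells of a kind and less RNA per cell cannot be told apart.

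Most distal 5q genes had lower mean TPM with si-FTO than with si-NC. On the scale used throughout, log2 of (si-FTO + 1) over (si-NC + 1), the median of the 89 members was -0.81, with quartiles at -1.21 and -0.27. The median of the 12908 other genes was -0.20, with quartiles at -0.79 and 0.39, so the members' median minus that of other genes was -0.61. The rest of chromosome 5, with 482 genes, had a median of -0.22, close to that of all other genes. It joins parts that differ: the short arm, 5p, had a median of 0.77 over 92 genes. The long arm outside the segment had one of -0.33 over 390 genes, with 67.2% below 0. A ratio below 0 was found for 75 of 89 members, beside 59.5% of all other genes. A log2 ratio of -1 or lower was found for 29 members (32.6%), beside 19.5% of all other genes, and a ratio of 1 or higher for 6 members (6.74%), beside 12.9% of all other genes. Under median-ratio scaling the counts were 23 lower and 9 higher, so that lower genes made up 71.9% of the called members in place of 82.9%, beside 15.4% of all other genes lower and 15.6% higher. Quantile normalization gave 29 lower and 8 higher, beside 15.5% and 15.4% of all other genes. Among all other genes the lower share of the calls was 60.2% as deposited, 49.7% under median-ratio scaling and 50.2% under quantile normalization.

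The interquartile range of the log2 ratios was 0.93 for members and 1.18 for all other genes, while the lowest 10% of ratios reached up to -2.15 among members and -1.67 among other genes. Summed over the members, TPM was 13011 with si-NC and 8372 with si-FTO, 64.3% of the si-NC value. NPM1 and RACK1 alone made up 4962 TPM of the sum with si-NC, and without them the si-FTO sum was 70.3% of that with si-NC.

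**Figure D1:**
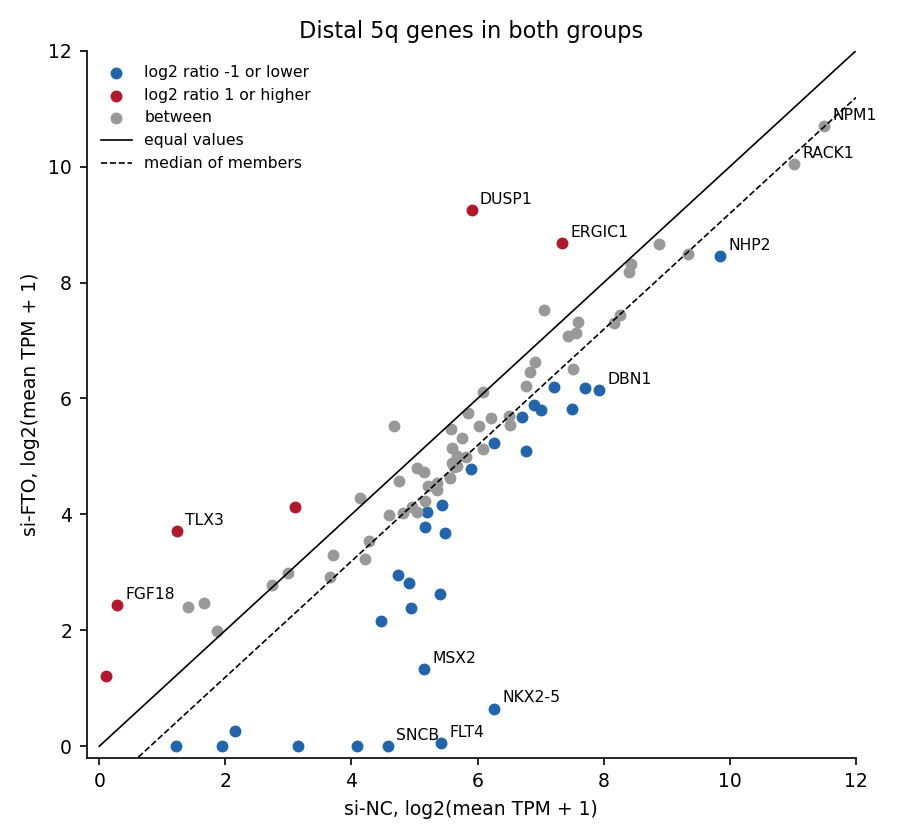
Mean TPM of the 89 distal 5q genes with si-NC (horizontal) and si-FTO (vertical), both as log2(mean TPM + 1), with 1 point per gene. Of the 89 points, 75 lie below the solid line of equal values, and the dashed line is drawn at the members' median log2 ratio of -0.81.

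**Figure D2:**
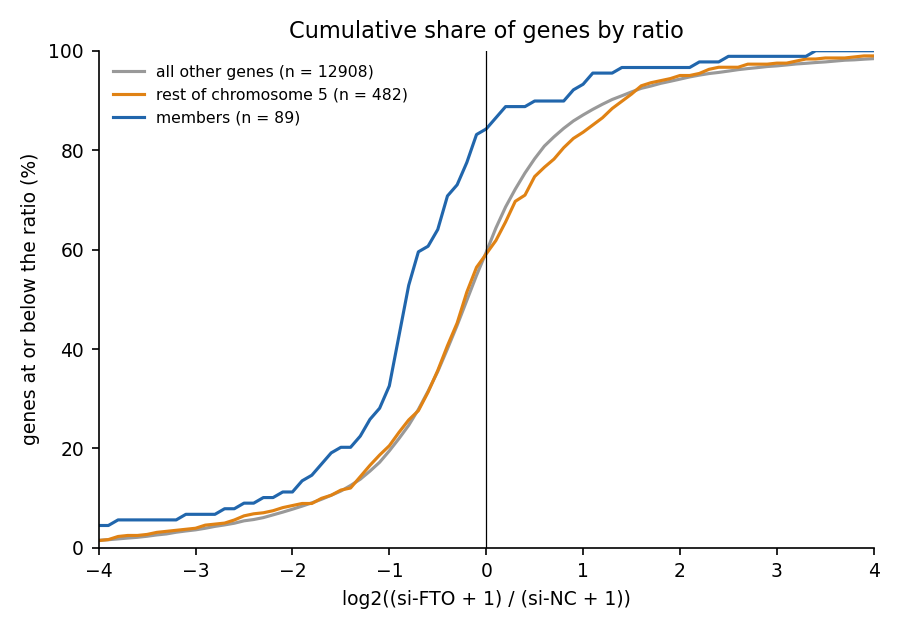
Cumulative percentage of genes (vertical) at or below each log2 ratio of si-FTO over si-NC (horizontal) for the 89 members, the rest of chromosome 5 (482 genes) and all 12908 other genes. The members' curve lies to the left of both others through most of its range, and the rest of chromosome 5 runs close to all other genes.

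The ribosome and translation genes had the highest summed TPM of the role lists in both groups, most of it from NPM1, RACK1 and NHP2. All 7 of those expressed had a ratio below 0, beside 59.5% of all other genes, with a median log2 ratio of -0.98. For FBLL1, which reached 1 TPM with si-NC only, a ratio below 0 was fixed by the choice of members. Together they had 6524 TPM with si-NC and 3440 TPM with si-FTO. NPM1, a nucleolar chaperone of ribosome assembly and the most abundant member, had 2883 TPM with si-NC and 1655 TPM with si-FTO, a log2 ratio of -0.80. RACK1, a scaffold protein on the small ribosomal subunit, had 2080 TPM with si-NC and 1056 with si-FTO (log2 ratio -0.98). With the pseudocount of 1, the lowest ratio of the list was that of NHP2, whereas with one of 0.1 FBLL1, listed at 0 with si-FTO, was lowest. NHP2, a core protein of the box H/ACA particles that guide pseudouridylation, had 922 TPM with si-NC and 349 with si-FTO (log2 ratio -1.40). RARS1, the arginyl-tRNA synthetase, stood at 182 TPM with si-NC and 90.5 with si-FTO. The highest ratio of the list was -0.35, for the nucleolar protein NOP16, with 172 and 135 TPM. NPM1, NHP2 and RPL26L1 share 33.5%, 13.0% and 47.9% of their 50-base words with other genes, annotated pseudogenes among them, so their values are uncertain. EIF4E1B, also on this list, was below 1 TPM in both groups.

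Promoters are shown for the most abundant member, NPM1, and for the members with the highest and the lowest log2 ratio among those with a mean TPM of at least 10 and an entry in the sequence table, DUSP1 and SNCB. Each is the 250 bases before the transcription start, 5′ to 3′ on the strand of the gene, from RefSeq (GRCh38.p14). Capitals mark the GC box letters GGGCGG, the letters CCAAT, the letters of the TATA box, TATAAA, and those of the E-box, CACGTG, on either strand. NPM1 is on the plus strand (chr5:171387599-171387848), and DUSP1 (chr5:172771196-172771445) and SNCB (chr5:176630535-176630784) are on the minus strand.
NPM1: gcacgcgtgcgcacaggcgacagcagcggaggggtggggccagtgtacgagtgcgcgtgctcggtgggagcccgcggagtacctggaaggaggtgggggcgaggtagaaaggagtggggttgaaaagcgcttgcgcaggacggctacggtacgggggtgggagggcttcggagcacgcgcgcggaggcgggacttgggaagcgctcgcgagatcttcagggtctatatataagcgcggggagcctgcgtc
DUSP1: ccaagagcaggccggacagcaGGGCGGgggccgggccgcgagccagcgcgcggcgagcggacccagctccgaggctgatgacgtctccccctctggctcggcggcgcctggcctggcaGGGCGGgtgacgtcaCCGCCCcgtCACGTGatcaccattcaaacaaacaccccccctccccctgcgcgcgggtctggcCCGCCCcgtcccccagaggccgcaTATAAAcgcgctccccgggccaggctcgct
SNCB: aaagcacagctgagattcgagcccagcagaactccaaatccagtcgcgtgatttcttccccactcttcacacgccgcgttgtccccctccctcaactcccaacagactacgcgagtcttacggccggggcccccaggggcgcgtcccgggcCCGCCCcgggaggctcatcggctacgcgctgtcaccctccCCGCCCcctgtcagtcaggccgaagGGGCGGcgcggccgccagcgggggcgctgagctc
None of these exact letters was found in the NPM1 window, which holds 29 CG pairs. Variants of them, such as the tatataa near its end, were not counted. The DUSP1 window holds GGGCGG 4 times, TATAAA 1 time and CACGTG 1 time, and the SNCB window holds GGGCGG 3 times. Entries were found for 83 of 89 members, with none for STK10, ERGIC1, ATP6V0E1, NKX2-5, TMED9 and FLT4. GGGCGG was present in 60 of the 83 members' windows (72.3%), beside 68.0% of those of other genes so filtered and 42.3% of all 27326 promoters. CCAAT was present in 32.5% of the members' windows and 33.0% of all promoters, TATAAA in 4.82% and 11.1%, and CACGTG in 9.64% and 6.5%. In other genes so filtered these shares were 34.8%, 5.57% and 9.12%. Except for CCAAT, the members' shares were thus nearer to those of other expressed genes than to those of all promoters.

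Of the 7 genes of RNA processing and mRNA turnover, 6 had a ratio below 0 (85.7%), beside 59.5% of all other genes, with a median of -0.55. HNRNPAB, an RNA-binding protein of the heterogeneous nuclear ribonucleoprotein family, had 648 TPM with si-NC and 357 with si-FTO (log2 ratio -0.86). Its relative HNRNPH1, a splicing regulator, was nearly level, with 343 and 320 TPM, and its ratio of -0.10 turned to 0.10 under median-ratio scaling. THOC3, a subunit of the THO complex in mRNA export, had the lowest ratio of the list, with 181 TPM with si-NC and 55.7 with si-FTO. Its value is uncertain, since 82.7% of its 50-base words are shared with another annotated gene. CPEB4, which binds cytoplasmic polyadenylation elements, went the other way, with 7.56 TPM with si-NC and 16.5 with si-FTO (log2 ratio 1.04).

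The genes of the secretory pathway, endosome and glycosylation stood closest to the general shift. Of 12, 10 had a ratio below 0 (83.3%), beside 59.5% of all other genes, and the median was -0.36. None was at -1 or lower, beside 19.5% of all other genes. With a pseudocount of 0.1, RAB24 passed -1, at -1.03. Under median-ratio scaling CANX and RUFY1 moved to just above 0. CANX, which holds newly made glycoproteins in the endoplasmic reticulum, had 468 TPM with si-NC and 407 with si-FTO, and its log2 ratio of -0.20 was level with the median of all other genes. ERGIC1, a protein cycling between endoplasmic reticulum and Golgi, was higher with si-FTO, with 162 TPM with si-NC and 409 TPM with si-FTO (log2 ratio 1.34). With ERGIC1 included, the summed TPM of this list was alike in the groups, at 1567 with si-NC and 1591 with si-FTO. The lowest ratio was that of the small GTPase RAB24, at -0.99, whose value is uncertain because its exons overlap those of MXD3.

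All 10 genes of cell division, chromatin and genome maintenance had ratios below 0, beside 59.5% of all other genes, with a median of -0.88. At -1 or lower were 4 (40%), beside 19.5% of all other genes. CCNG1, the p53 target cyclin G1, had 207 TPM with si-NC and 71.7 with si-FTO (log2 ratio -1.52). BOD1, needed for chromosome biorientation, had 118 TPM with si-NC and 58.1 with si-FTO. Its ratio of -1.01 became -0.81 under median-ratio scaling, which leaves 3 at -1 or lower, beside 15.4% of all other genes so scaled. SIMC1, which shares 20.04% of its 50-base words with other genes and is therefore uncertain, was lowest, with 43.6 and 11.8 TPM. HMMR, a spindle-associated hyaluronan receptor, was highest at -0.17, which became 0.03 under median-ratio scaling. All 9 genes of the ubiquitin system were also below 0, with a median of -0.72, although RNF44, at -0.10, turned to 0.10 under median-ratio scaling. FAF2, an adaptor in endoplasmic reticulum-associated degradation, had 104 TPM with si-NC and 50.4 with si-FTO, and the ubiquitin ligase RNF130 had 75.4 and 36.4. TRIM52 was the lowest of them, with 35.7 and 15.5 TPM, and TRIM7 the highest, with 7.0 and 6.9 TPM, a ratio of -0.02 that turned to 0.18 under median-ratio scaling and 0.26 under quantile normalization.

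The signalling and transcription genes spanned a wide range of ratios. Of the 13, 9 had a ratio below 0 (69.2%), beside 59.5% of all other genes. At -1 or lower were 6 (46.2%), beside 19.5% of all other genes, and at 1 or higher 1 (7.69%), beside 12.9%. The median was -0.83 and the ratios ran from -5.61 to 3.35. NKX2-5, a homeobox transcription factor best known from heart development, had 75.4 TPM with si-NC and 0.569 with si-FTO. FLT4, the receptor VEGFR3, had 41.8 TPM with si-NC and 0.0346 with si-FTO. The homeobox gene MSX2 had 34.6 TPM with si-NC and 1.52 with si-FTO. NKX2-5 and FLT4 reached 1 TPM with si-NC only, so they had to be lower with si-FTO, while MSX2 reached it in both groups. RGS14, a regulator of G protein signalling, had 41.4 and 5.14 TPM, and the adaptor DOK3 had 21.2 and 3.46 TPM. GRK6, a kinase of G protein-coupled receptors, had 108 TPM with si-NC and 33.1 with si-FTO. DUSP1, an inducible phosphatase that switches off MAP kinases, had the highest ratio of the list, with 58.9 TPM with si-NC and 610 with si-FTO. Its ratio was also the highest of the segment with the pseudocount of 1, but with one of 0.1 FGF18 was higher, at 3.84 beside 3.37 for DUSP1. The others above 0 were NEURL1B, at 0.05, CREBRF, at 0.12, and WWC1, a scaffold of the Hippo pathway, at 0.87, which became 1.07 under median-ratio scaling.

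Of the 7 expressed genes of mitochondria and metabolism, 6 had a ratio below 0 (85.7%), beside 59.5% of all other genes, with a median of -0.83. HIGD2A, a respiratory chain assembly factor, had 337 TPM with si-NC and 291 with si-FTO, and PRELID1, a lipid transfer protein of mitochondria, had 306 and 172. The value of PRELID1 is uncertain, since it shares 29.6% of its words with other genes. GFPT2, an enzyme of the hexosamine pathway, was lowest, with 29.8 TPM with si-NC and 4.21 with si-FTO (log2 ratio -2.56). MAT2B, the regulatory subunit of methionine adenosyltransferase, was highest and nearly level, with 67.0 and 68.2 TPM. HK3, SLC34A1 and LTC4S, on the same list, were below 1 TPM in both groups.

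Genes of the cytoskeleton, adhesion and secreted proteins lay on both sides of 0. Of 11, 7 had a ratio below 0 (63.6%), near the 59.5% of all other genes, and the median was -0.96. At -1 or lower were 4 (36.4%), beside 19.5% of all other genes, and at 1 or higher 2 (18.2%), beside 12.9%. Under both scalings and the pseudocount of 0.1, UNC5A and N4BP3 also passed 1, which makes 4 higher, and with that pseudocount F12 passed -1. DBN1, the actin-binding protein drebrin, had 242 TPM with si-NC and 70.0 with si-FTO (log2 ratio -1.78), and PDLIM7 had 90.1 and 45.8 TPM. ADAMTS2, a procollagen peptidase, had 16.1 TPM with si-NC and was listed at 0 with si-FTO, as was SLIT3, an axon guidance ligand with 2.87 TPM with si-NC. The growth factor FGF18 was highest, with 0.215 TPM with si-NC and 4.42 with si-FTO, and TENM2 came next at 1.09. FGF18 and TENM2 reached 1 TPM with si-FTO only, and ADAMTS2 and SLIT3 with si-NC only, so these 4 had to differ between the groups. DOCK2, CDHR2 and SCGB3A1 were below 1 TPM in both groups. The 13 members in no list had a median of -0.81. Among them the beta-synuclein gene SNCB had 22.8 TPM with si-NC and BTNL9 had 7.90, and both were listed at 0 with si-FTO. These and RASGEF1C reached 1 TPM with si-NC only and so had to be lower. ARL10, an ARF-like GTPase, had 29.2 and 6.02 TPM. The homeobox gene TLX3 was the highest, with 1.35 TPM with si-NC and 12.05 with si-FTO (log2 ratio 2.47). The most abundant of the unlisted members were TBC1D9B, with 112 and 87.3 TPM, and KIAA1191, with 127 and 54.5 TPM.

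**Figure D3:**
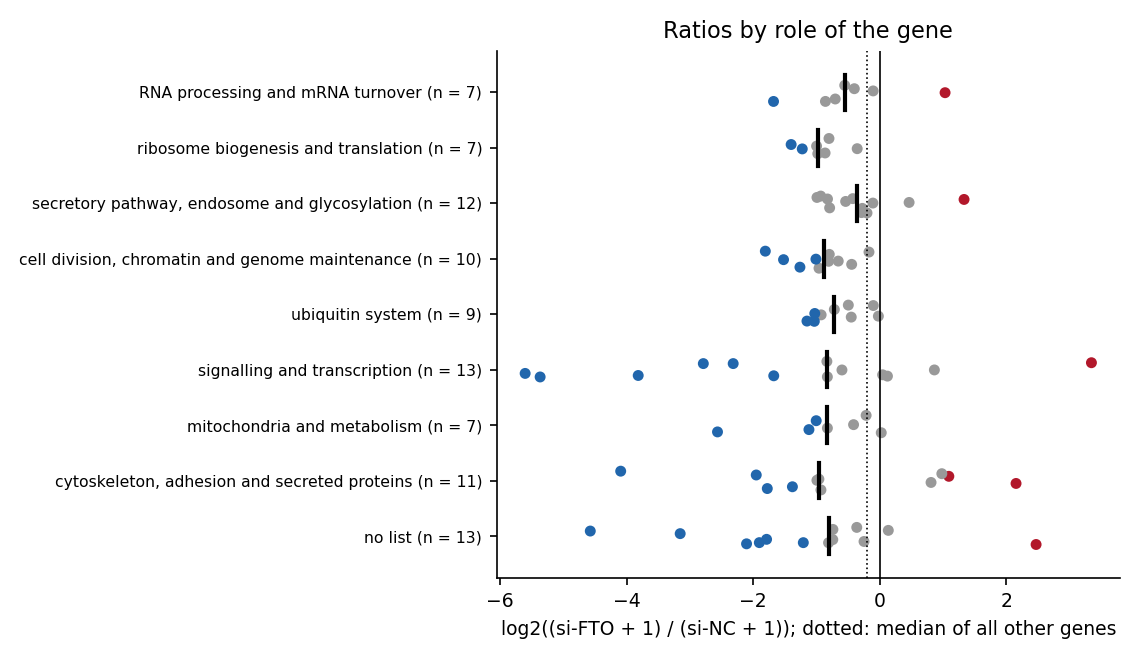
Log2 ratio of si-FTO over si-NC (horizontal) for each distal 5q gene, in rows by role, with 1 point per gene (blue at -1 or lower, red at 1 or higher, grey between) and a black bar at each median. Every median lies below 0 and to the left of the dotted line at -0.20, the median of all other genes, and the signalling genes span the widest range.

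Along the chromosome, low ratios were present from end to end of the segment. The first 3 members from the proximal end were CCNG1 (starting at 162864575 in GRCh37), NUDCD2 and HMMR, and the last 3 were TRIM41, RACK1 and TRIM52. In stretches of 10 consecutive members, the medians ran from -0.37, for the stretch from DUSP1 to CPEB4, to -1.12, for the next stretch from MSX2 to FAF2. All 6 members at a log2 ratio of 1 or higher lay among the first 30 of the 89, from TENM2 to CPEB4. This did not hold under the scalings or a pseudocount of 0.1: UNC5A and N4BP3, farther along, were at 0.98 and 0.81 as deposited, at 1.18 and 1.01 under median-ratio scaling, at 1.48 and 1.30 under quantile normalization and at 1.31 and 1.04 with the pseudocount of 0.1. As deposited, the longest run of neighbours with ratios below 0 was that of the last 26 members, from RMND5B to TRIM52, followed by 14 members from MSX2 to TSPAN17. Both runs are broken under median-ratio scaling, where RUFY1, HNRNPH1, CANX and TRIM7 in the first and RNF44 in the other lie above 0, and TRIM7 lies above 0 under quantile normalization too.

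Neighbouring genes nonetheless differed widely. TLX3 and FGF18 lie on either side of NPM1, and their log2 ratios of 2.47 and 2.16 were set beside -0.80 for NPM1. ERGIC1 at 1.34 is followed by RPL26L1 at -0.86. The ratio of a member and that of the next member had a Spearman correlation of 0.07 over 88 neighbouring pairs, and the ratio and the order along the chromosome one of -0.18 over 89 genes. These correlations are across genes, which are not independent replicates.

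**Figure D4:**
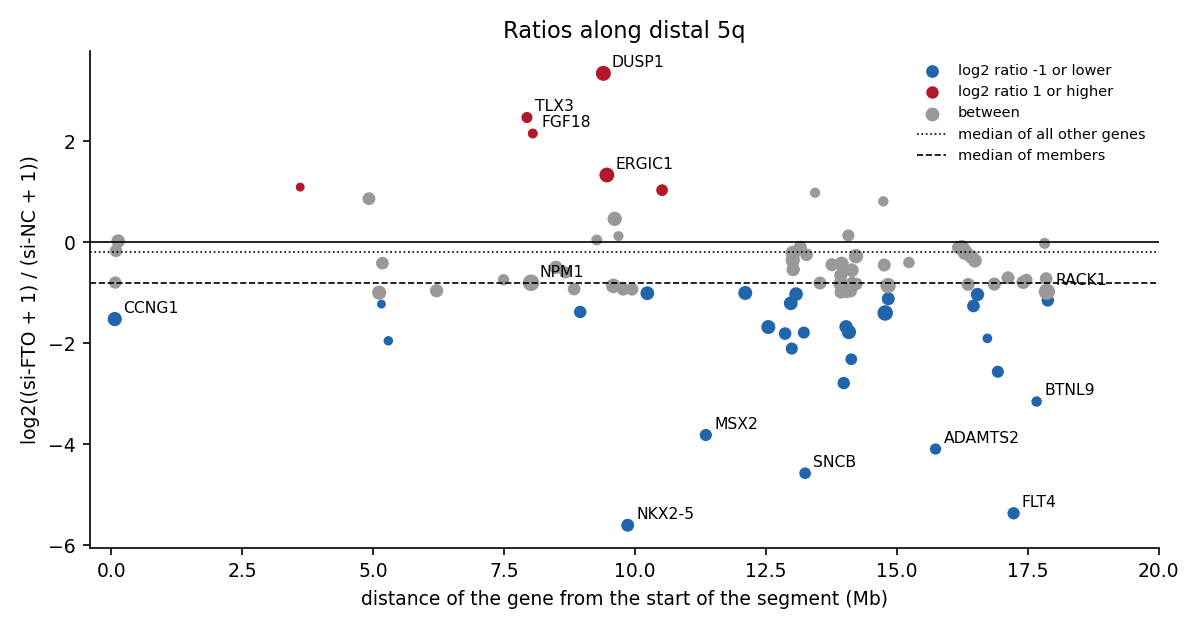
Log2 ratio of si-FTO over si-NC (vertical) against the distance of each distal 5q gene from the start of the segment in Mb (horizontal), with 1 point per gene and larger points for higher mean TPM. As deposited, the members at 1 or higher lie within the first 11 Mb, though UNC5A and N4BP3, farther along, pass 1 under both scalings and a pseudocount of 0.1, and the dashed line at -0.81 (members) runs below the dotted line at -0.20 (all other genes).

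The low ratios did not begin at the segment's start. The 90 expressed genes between 140 Mb and the segment had a median log2 ratio of -0.64, and 81.1% of them were below 0. Nearer the centromere the medians of 20 Mb blocks of 5q were higher, at -0.35 from 60 to 80 Mb, 0.08 from 80 to 100 Mb, -0.28 from 100 to 120 Mb and -0.21 from 120 to 140 Mb. The short arm, 5p, stood on the other side of 0, with a median of 0.77 over 92 genes, of which 23 were below 0. Distal 5q was not alone in its shift: distal 6q (from 88 Mb, 248 genes) had a median of -0.79 and distal 22q (from 38 Mb, 154 genes) one of -0.82. No test of these differences was possible with 1 mean per group.

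The shift of the members was present among abundant genes. For a mean over both groups of 20 to 100 TPM, the median was -0.83 for 42 members and -0.13 for 4989 other genes, and 40 of the 42 members were below 0, beside 57.5% of the other genes. Above 100 TPM it was -0.80 for 21 members and -0.07 for 1456 other genes, with 18 of the 21 members below 0, beside 53.6% of the other genes. The gap between members and other genes was thus wide among the more abundant genes. From 5 to 20 TPM the medians were -0.74 for 17 members and -0.20 for 3866 others. At 1 to 5 TPM the medians were 0.12 for 7 members, which is the value of CREBRF alone, and -0.57 for 2135 others. No order is read from this level, since SLIT3, RASGEF1C, BTNL9 and FGF18 reached 1 TPM in 1 group only, which fixed their direction. The direction was also fixed for NKX2-5 and FLT4 among the genes of 20 to 100 TPM. The same applies to SNCB and ADAMTS2 among those of 5 to 20 TPM.

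Related genes outside the segment were set beside members as a description only, since the segment was selected on its values. For 38 pairs of a member and a paralog on another chromosome, the median log2 ratio was -0.57 for the members and -0.17 for the paralogs. The paralogs' median was near the -0.20 of all other genes. The member had the lower ratio in 26 pairs and the higher in 12, and the median difference was -0.37. The 26 include FBLL1, whose lower value with si-FTO was fixed by the choice of members. The ratios differed by more than 1 log2 unit in 11 pairs, with the member lower in 9. The widest gap was in the first enzyme of the hexosamine pathway, with GFPT2 at -2.56 and its paralog GFPT1 at 0.45. The adaptor SH3PXD2B was at -1.38 and SH3PXD2A at 1.23. The mitochondrial serine transporter SFXN1 was at -1.0 and its relative SFXN3 at 1.28. DBN1 at -1.78 stood beside DBNL at 0.29, and NEURL1B at 0.05 beside NEURL1 at 1.98. In each of these pairs the member had the lower ratio. Of the cyclins G, CCNG1 was at -1.52 and CCNG2 at -0.22. The remaining pairs with a lower member were BOD1 with BOD1L1, RPL26L1 with RPL26, and GRK6 with GRK5, with differences of -1.22, -1.05 and -1.03. The member was higher for CANX, at -0.20 beside -2.62 for its paralog CLGN, and for CPEB4, at 1.04 beside -0.52 for CPEB2. NPM1, at -0.80, was above its paralog NPM3, at -1.09.

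**Figure D5:**
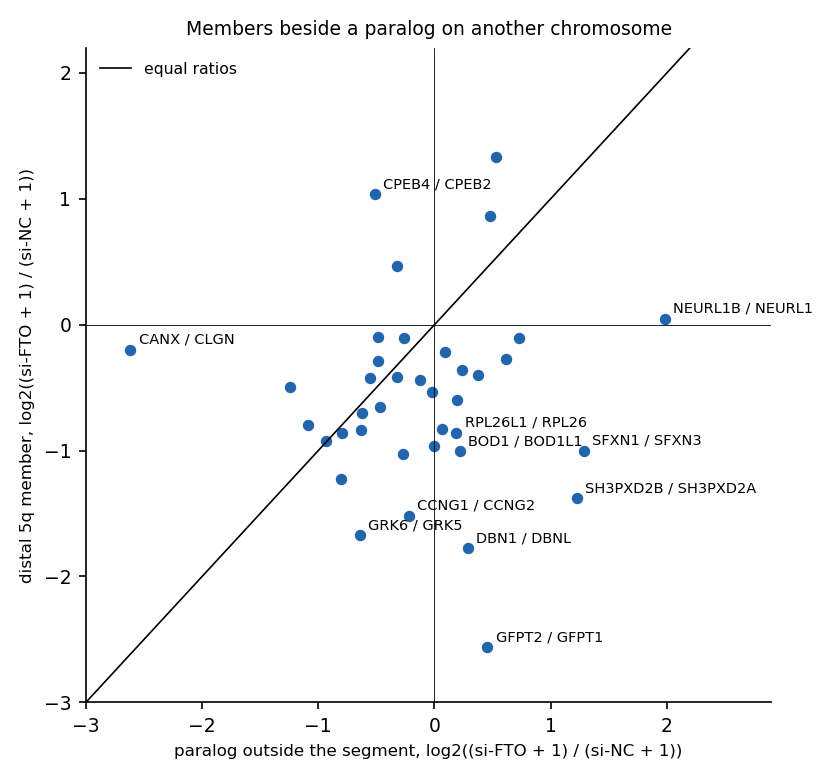
Log2 ratio of si-FTO over si-NC for 38 distal 5q genes (vertical) and for 1 paralog of each on another chromosome (horizontal), with the line of equal ratios. Of the 38 points, 26 lie below the line, and pairs more than 1 log2 unit apart are named.

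Features that the choice of members did not use overlapped widely with those of other genes. The median GC content of their transcripts was 54.5% (quartiles 46.2% and 59.9%), compared with 49.1% (42.2% and 57.3%) for 12828 other genes with an annotated transcript. Their median gene length was 24039 bases against 33830.5, and their median number of exons 8 against 9. On the plus strand lay 43 of the 89 members (48.3%), beside 51.0% of other genes. In 33 members an exon overlaps a gene on the opposite strand and in 8 a gene on the same strand. How strand entered the authors' counting is not given in the sources used here, so reads of such genes could not be told apart.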

How the data were processed

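Total RNA of 3 si-NC and 3 si-FTO libraries of AGS cells was sequenced on an Illumina instrument after a stranded library preparation. According to the methods of the study, the authors mapped reads to hg19 with Bowtie and quantified genes with RSEM, while the submitters' processing notes name HISAT2. Versions and annotation are not given in the sources used here. The deposited TPM of each of 58174 genes is the authors' mean over a group, with 1 value per group, and 55726 of the identifiers matched the annotation. Depth cannot be read from TPM, so no counting interval is given. The table's log2 ratios, p-values and q-values are the authors' own comparison and were not used, nor was a second table holding the genes selected by it.

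A value of 0.0001 TPM was read as 0. Positions and biotypes came from GENCODE on GRCh37 (hg19), and promoters from RefSeq on GRCh38.p14, with no conversion between them. Ratios were log2 of (mean TPM + 1), which understates the change of low genes, and ratios of -1 or lower and of 1 or higher were called. The members and the lists of roles, paralogs and markers were chosen with earlier results of these data known. Genes named are FTO, the 10 lowest and 5 highest ratios, the 10 highest mean TPM, the first and last 3 members, in each list the 2 most abundant and the lowest and highest ratio, and paralog pairs over 1 log2 unit apart. Any other gene was picked with its values known. Shared sequence was counted as 50-base words of a member's longest protein-coding transcript found in any transcript of another gene. Words of a member's other transcripts were not counted. Alternatives covered the pseudocount, the minimum TPM, the scaling, the names and biotypes kept, the start of the segment, the comparison genes and the threshold. The calculations used Python 3.11.15, numpy 2.4.6, pandas 2.3.3 and matplotlib 3.10.9, and were tested on simulated data.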

Additional observations from a re-analysis of the deposited data

How the results depend on the processing

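The members' median stayed below that of the genes compared with them under each of the alternatives run, and no count of members below 0 moved by more than 1.5 times. With no minimum TPM, the members' median was -0.44 and that of all other genes -0.0269, since unexpressed genes enter at 0. The median of all other genes was 0.00354 under median-ratio scaling, which sets the median of all genes to 0, and -0.0808 under quantile normalization. With all biotypes, 13 of 123 genes of the segment (10.6%) were at a log2 ratio of 1 or higher, beside 13.2% of other genes. At a threshold of 0.5, 57 members (64.0%) were called lower, beside 35.5% of all other genes. At a threshold of 2, 10 members (11.2%) were called lower and 3 (3.37%) higher, beside 7.77% and 5.71% of all other genes. The median of each of the 8 role lists, and of the members in no list, stayed below 0 under the pseudocount of 0.1 and both scalings. Under median-ratio scaling, the secretory list moved from -0.36 to -0.16 and the RNA processing list from -0.55 to -0.35. Of 90 single genes, 25 moved by more than 1.5 times under median-ratio scaling, 9 under quantile normalization and 9 under the pseudocount of 0.1, and no gene called lower or higher changed sign. Alternatives added after seeing the data left out the 8 members that share at least 10% of their words with other genes, or genes below 1 TPM in a group, and moved none of the medians and counts over the whole segment by more than 1.5 times. Without genes below 1 TPM in a group, 21 of 79 members (26.6%) were lower and 4 (5.06%) higher, beside 11.5% and 10.2% of other genes. No paired analysis was possible because only group means are given, and leaving out single libraries was not run for the same reason. The spread between libraries is unknown, as is the depth, so the precision of each ratio is unknown too.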

Other observations

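Genes of the same segment that the choice of members passed over gave further values. The 7 protein-coding genes left out by name that reached 1 TPM had a median log2 ratio of -1.27. At -1 or lower were 6 and at 1 or higher 1, beside 19.8% and 12.6% of genes outside the segment with such names kept. The 35 non-coding and other genes of the segment at 1 TPM or more had a median of -0.48. Of these, 8 (22.9%) were at -1 or lower, 7 (20%) at 1 or higher and 27 (77.1%) below 0. Over all biotypes outside the segment, 19.1% of genes were at -1 or lower, 13.2% at 1 or higher and 59.4% below 0. The share at -1 or lower was near that of the 35 genes, while the shares at 1 or higher and below 0 were smaller. That pool includes the protein-coding genes, so the sets are unlike. The all-biotype set of the segment holds 123 genes, fewer than the 89 members and these 35 genes together. Symbols beginning ZNF, COL or MRP were left out of that set but not of the 35 genes. The quartiles of the 35 genes were -0.94 and -0.07, and the ratios ran from -4.35 to 5.02.

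Among whole chromosomes other than 5, the lowest medians of expressed genes were those of chromosome 22, at -0.63 over 334 genes, and chromosome 18, at -0.62 over 180 genes. The highest was that of chromosome 15, at 0.15 over 427 genes. The 89 distal 5q genes, at -0.81, lay below each of these chromosome medians. They are fewer genes than any of the whole nuclear chromosomes compared, and the segment was selected on its values.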
